A study of Rattus norvegicus with 3 samples.

Results

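The metalloproteinase family of the postnatal rat testis was examined as the secreted and membrane matrix metalloproteinases (MMPs), the membrane ADAM proteins, the secreted ADAMTS proteases and the tissue inhibitors of metalloproteinases (TIMPs). Members were the probe sets whose RefSeq accession carried a rat symbol of the form Mmp, Timp, Adam or Adamts followed by its number. This gave 31 genes with 1 probe set each, out of 26299 genes on the array once probe sets sharing a symbol had been averaged. They comprised 13 MMPs, 11 ADAMs, 4 ADAMTS proteases and 3 TIMPs. Another 44 rat genes with such symbols, among them Adam10, Mmp13 and Timp4, were not matched to a probe set and were not analysed here.

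Whole testes of untreated Wistar-Imamichi rats, a Wistar stock, were compared on postnatal days 6, 8 and 10, with the birth date counted as day 1. Total RNA carrying the Cy3 dye was measured on one-colour NimbleGen expression arrays, 1 array for each day. The number of animals behind each RNA is not given in the sources used here. All values are the authors' normalized intensities, here on the log2 scale, and differences are the later minus the earlier day. Since a single array stands for each day, neither a spread over animals nor a p-value can be given, and effects of age, of the animals and of the arrays cannot be told apart. The only available measure of error was the disagreement between probe sets of the same gene within these arrays. The pooled SD of the log2 difference between such probe sets was 0.40 over 61 genes between days 10 and 6. It was 0.27 over 60 genes between days 8 and 6, and 0.43 over 62 genes between days 10 and 8. No member had a second probe set.

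MMPs are zinc enzymes that cut collagens, basement membrane and other proteins outside cells, and are made as inactive precursors. ADAMs are membrane proteins, some of which release growth factors and receptors from the cell surface while others, without protease activity, serve adhesion between sperm and egg. ADAMTS proteases cut proteoglycans and procollagens, and TIMPs bind the active site of MMPs and of some ADAM and ADAMTS enzymes. In the testis these proteins act where the cords, their basement membrane and the tissue between them are remodelled during growth, and a separate set of ADAMs is made by germ cells.

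A gene was taken as detected when above the array's floor, which was the median of all probe sets (7.78, 7.79 and 7.67 on days 6, 8 and 10). That floor lay above the 95th percentile of olfactory and vomeronasal receptors, genes mostly not expressed in testis (5.70, 5.60 and 6.11). The family split cleanly at this level. Of the 31 members, 16 (51.6%) were above the floor on all 3 arrays and the other 15 were under it on all 3, against 57.8% of all named genes above it on at least 1 array. The detected members were Mmp2, Mmp11, Mmp14, Mmp16 and Mmp23, all 3 TIMPs, Adam1a, Adam9, Adam15, Adam17 and Adam23, and Adamts1, Adamts5 and Adamts7. Their lowest value was 8.68, for Adam1a on day 6, while the undetected members lay between 4.09 and 7.31.

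**Figure D1:**
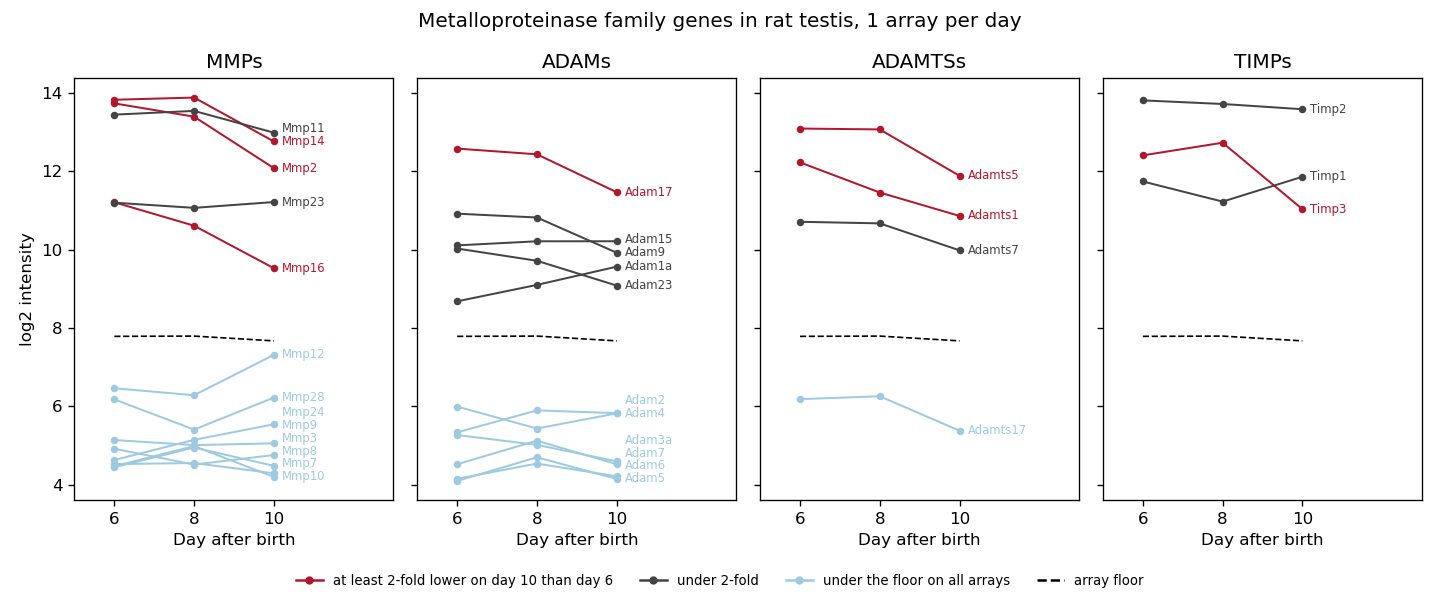
Log2 intensity of the 31 family members on postnatal days 6, 8 and 10, 1 array per day, with MMPs, ADAMs, ADAMTS proteases and TIMPs in separate panels. Each line is 1 gene and the dashed line is the array floor. The 16 detected genes stay above the floor and the 15 others under it on each day, and the 7 red lines are genes at least 2-fold lower on day 10 than on day 6.

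The undetected MMPs included the gelatinase of inflammatory cells, Mmp9 (5.14, 5.01 and 5.05 on days 6, 8 and 10), and the neutrophil collagenase Mmp8 (4.44, 4.94 and 4.48). Both were below the receptor percentile on each day. The 4 granulocyte markers on the array, Prtn3, S100a8, S100a9 and Itgam, were also under the floor on every day, with summed intensities of 167, 221 and 232. Also undetected were the stromelysins Mmp3 and Mmp10, the matrilysin Mmp7, the membrane-type Mmp24 and Mmp28 (epilysin), with values between 4.20 and 6.22. Adamts17 (6.18, 6.25 and 5.38), an ADAMTS of wide genomic span, was the undetected ADAMTS.

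Mmp12, the macrophage metalloelastase, had the highest values of the undetected group (6.46, 6.28 and 7.31). It was higher on day 10 than on both earlier days, and it was the 1 undetected member above the receptor percentile on all 3 arrays. Its difference of 1.03 between days 10 and 8 lay wholly under the floor and was not counted as a change. Of 7 macrophage markers, all detected, 5 had higher values on day 10 than on day 6 (median difference 0.33), while Csf1r (-0.34) and Adgre1 (-0.41) had lower ones. Of all 13955 genes compared between these days, 7152 had a positive difference. The summed intensity of the 7 markers was 11389, 12690 and 14258 on days 6, 8 and 10. The part of macrophages in the Mmp12 signal was not tested.

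Most ADAMs known from sperm were undetected. Adam2 (fertilin beta), Adam3a (cyritestin, needed in the mouse for sperm passage into the oviduct), Adam4, Adam5, Adam6 and the epididymal Adam7 ranged from 4.09 to 5.99. Adam7 had 4.52, 5.12 and 4.52, and the epididymal markers Lcn5, Crisp1 and Defb22 were likewise under the floor on each day. The exception was Adam1a, a fertilin alpha gene, whose product pairs with Adam2. Adam1a had 8.68 on day 6, then 9.10 on day 8 and finally 9.56 on day 10. Its values were higher at each later day, and the difference of 0.88 between days 10 and 6 (1.85-fold) was short of 2-fold. Among the 5 detected genes of 7 on the array that sperm ADAM3 maturation needs, Adam1a among them, all 5 had a positive difference between days 10 and 6 (median 0.61), against a median of 0.02 over all 13955 genes in that comparison. Only Tex101, a germ cell surface protein, passed 2-fold among them (9.50, 10.38 and 11.52 on days 6, 8 and 10). Germ cell markers, a list that also holds Tex101, had summed intensities of 14420, 16528 and 19071. Of 5 in the comparison, 2 were at least 2-fold higher (Tex101 again, and Ret) and 1 was lower (Dnmt3l), while Ddx4 was nearly flat (0.15). Of the named genes in that comparison, 4.48% were at least 2-fold higher and 11.7% lower. In RNA from whole tissue, more cells of a type and more RNA per cell cannot be told apart.

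Detected and undetected members also differed in place and in promoter sequence. Mmp12, Mmp3, Mmp10, Mmp8 and Mmp7 lie in this order in 1 run on chromosome 8 of the rat assembly GRCr8, with only other MMP genes (Mmp1b, Mmp1, Mmp27 and Mmp20) between them, and all 5 were undetected. Adam5 and Adam3a, both undetected, are adjacent on chromosome 16, and Adam32 is the 1 coding gene between them and the detected Adam9. Adamts1 and Adamts5 are adjacent on chromosome 11, and both were detected. RefSeq promoter windows of GRCr8, from 250 bases before to 50 after the gene start, were matched by symbol for 19 of the 31 members, 10 detected and 9 undetected.

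Each window was searched on both strands for a TATA box (TATAAA), an AP-1 site (TGANTCA) and a GC box (GGGCGG). Matches of different motifs did not overlap in the members' windows. Over all 33469 windows of the same length, 14.2% held the TATA letters, 7.33% the AP-1 letters and 33.1% the GC box letters. A GC box was present in 8 of 10 detected and 2 of 9 undetected members. An AP-1 match was present in 0 of 10 detected and 4 of 9 undetected members, and a TATA match in 2 of 10 and 5 of 9. All of these undetected AP-1 and TATA matches lie in the chromosome 8 run, so both contrasts rest on neighbouring MMP genes. The TATA letters of Mmp8 and of the detected Adamts7 were found on the opposite strand alone. The other undetected windows, of Adam4, Adamts17, Mmp24 and Mmp28, held neither motif, and the 2 with a GC box were Mmp24 and Mmp28. Among named genes on the array with a window, the GC box share was 63.6% for 4582 detected and 21.2% for 3259 undetected genes, so that this contrast is also seen outside the family. For AP-1 the shares were 5.46% and 9.30%, and for TATA 6.90% and 23.5%. The median GC content of the windows was 67.3% in detected and 46.3% in undetected members, against 61.0% and 47.3% in the named genes. Outside the chromosome 8 run, the undetected windows had 83.7% (Mmp24), 65.0% (Mmp28), 53.7% (Adamts17) and 42.7% (Adam4).

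The stretch from 170 bases before to 20 after the annotated start is shown for the 3 members that were at least 2-fold lower on day 10 than on day 6 and had a window (the first 3 lines), and for the 4 undetected members of the chromosome 8 run that hold both AP-1 and TATA letters (the last 4). Capitals mark matches to the 3 motifs.
Timp3 (chr7:19459539-19459728, minus strand): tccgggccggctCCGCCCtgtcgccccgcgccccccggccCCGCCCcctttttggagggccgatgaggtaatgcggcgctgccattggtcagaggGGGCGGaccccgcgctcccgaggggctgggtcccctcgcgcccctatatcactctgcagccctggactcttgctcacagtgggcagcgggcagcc
Adamts1 (chr11:38427365-38427554, minus strand): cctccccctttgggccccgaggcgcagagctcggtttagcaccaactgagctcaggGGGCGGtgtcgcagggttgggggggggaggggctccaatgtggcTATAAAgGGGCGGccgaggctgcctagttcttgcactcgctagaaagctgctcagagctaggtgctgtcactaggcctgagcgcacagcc
Adam17 (chr6:46649325-46649514, minus strand): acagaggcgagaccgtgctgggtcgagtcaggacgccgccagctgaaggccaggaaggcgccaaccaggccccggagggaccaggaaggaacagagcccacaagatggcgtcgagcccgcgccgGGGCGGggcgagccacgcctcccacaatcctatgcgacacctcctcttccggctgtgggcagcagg
Mmp12 (chr8:12866482-12866671, plus strand): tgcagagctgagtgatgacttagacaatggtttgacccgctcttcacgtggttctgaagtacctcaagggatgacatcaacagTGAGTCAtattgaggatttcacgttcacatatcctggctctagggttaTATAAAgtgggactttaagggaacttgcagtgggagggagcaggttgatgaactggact
Mmp3 (chr8:12925111-12925300, plus strand): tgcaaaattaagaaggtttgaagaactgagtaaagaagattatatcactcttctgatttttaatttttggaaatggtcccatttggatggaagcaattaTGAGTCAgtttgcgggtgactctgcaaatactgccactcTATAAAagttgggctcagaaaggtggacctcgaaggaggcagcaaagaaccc
Mmp10 (chr8:12974537-12974726, plus strand): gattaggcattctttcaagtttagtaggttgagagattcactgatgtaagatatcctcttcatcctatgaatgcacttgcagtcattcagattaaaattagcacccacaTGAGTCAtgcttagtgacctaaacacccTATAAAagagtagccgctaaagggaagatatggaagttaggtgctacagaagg
Mmp7 (chr8:13132873-13133062, plus strand): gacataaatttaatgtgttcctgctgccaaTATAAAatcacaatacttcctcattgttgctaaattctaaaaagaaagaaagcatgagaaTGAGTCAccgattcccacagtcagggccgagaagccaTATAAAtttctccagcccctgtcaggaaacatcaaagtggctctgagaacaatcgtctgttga
The AP-1 letters start 87, 71, 61 and 80 bases before the annotated start in Mmp12, Mmp3, Mmp10 and Mmp7, and the nearest TATA letters 39, 32, 33 and 43 bases before it. Mmp8, the remaining member of the run, holds TATA letters on the opposite strand (read as TTTATA) 30 bases before its start and no AP-1 match. Timp3 has 3 GC boxes and Adam17 has 1, neither with TATA letters, while Adamts1 has TATA letters 70 bases before its start between 2 GC boxes. A match is a description of the letters in the window and does not show that a factor binds there.

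**Figure D2:**
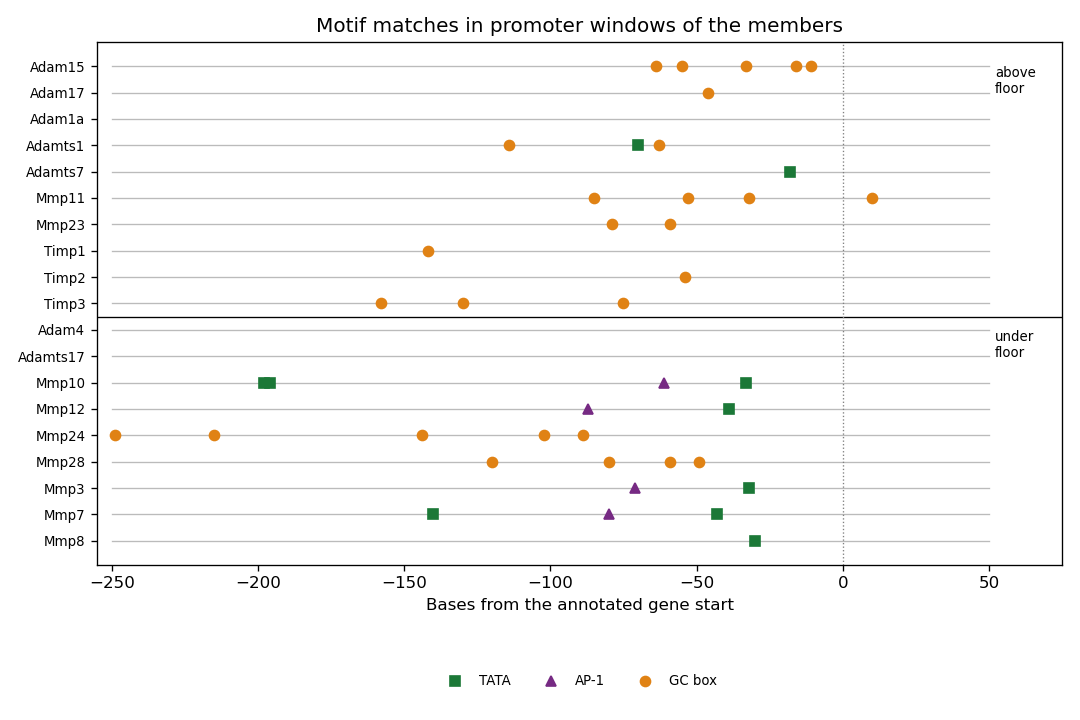
Positions of TATA, AP-1 and GC box letters in the promoter windows of the 19 members with a RefSeq window, in bases from the annotated gene start, with detected genes above the horizontal line and undetected genes under it. GC boxes mark 8 of the 10 detected genes, and AP-1 matches occur in 4 of the 9 undetected ones, all of them in the chromosome 8 MMP run.

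The comparison of day 10 with day 6 covers the whole interval, and here the detected members were mostly lower on day 10. Of the 16, 12 were below their day 6 value, 7 of them by 2-fold or more, and 0 were higher by 2-fold or more. The 2-fold threshold is that of the submitters' design text. Of the 5518 named genes in this comparison, 11.7% were lower by 2-fold or more and 4.48% were higher, and of all 13955 genes 12.8% were lower and 8.57% higher. The median difference of the 16 members was -0.97, against -0.02 for the named genes. Among the 3654 named genes averaging at least 10 on the log2 scale, where most detected members lie, 7.39% were at least 2-fold lower. The 7 lower members were Mmp2, Mmp14, Mmp16, Timp3, Adamts1, Adamts5 and Adam17, with differences from -1.06 to -1.68.

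Mmp2, the gelatinase that cuts denatured collagen and basement membrane collagen, had 13.73 on day 6, then 13.39 on day 8 and finally 12.08 on day 10. It was lowest on day 10, 3.14-fold lower than on day 6 and 2.48-fold lower than on day 8. Mmp14 (MT1-MMP), a membrane-bound collagenase and the main cell surface activator of the Mmp2 precursor, had 13.82, 13.88 and 12.76 on the same days. Its values on days 6 and 8 nearly coincided, and day 10 was 2.09-fold lower than day 6. Mmp16 (MT3-MMP), a second membrane enzyme that can activate the Mmp2 precursor, had 11.21, 10.61 and 9.52. It was lower at each later day, with a whole difference of -1.68 (3.21-fold), close to that of Mmp2 (-1.65).

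The remaining detected MMPs did not reach 2-fold. Mmp11, stromelysin 3, made by stromal cells and activated inside the cell by furin, had 13.44, 13.54 and 12.98 on days 6, 8 and 10. Its day 10 value was the lowest, by 0.46 against day 6. Mmp23, a membrane-anchored MMP known from gonads, had 11.20, 11.06 and 11.21, and its days differed by less than the spread between probe sets of a gene.

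The 3 inhibitors did not share a pattern. Timp3, which is bound to the extracellular matrix and inhibits Adam17 and the ADAMTS proteoglycanases as well as MMPs, had 12.40 on day 6, then 12.73 on day 8 and finally 11.03 on day 10. It was highest on day 8 and lowest on day 10, 2.59-fold lower than on day 6 and 3.24-fold lower than on day 8. Timp2, which also takes part in the activation of the Mmp2 precursor by Mmp14, had 13.81, 13.71 and 13.58 and was nearly flat (-0.23 between days 10 and 6). Timp1, a secreted inhibitor, had 11.74, 11.22 and 11.86. It was lowest on day 8, and days 10 and 6 differed by 0.12. On day 10 against day 6, therefore, Mmp2 and Mmp14 differed by -1.65 and -1.06 while Timp2 and Timp1 differed by -0.23 and 0.12. The gap between these differences was not tested, since each rests on 1 probe set and 1 array per day.

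The proteoglycanases Adamts1 and Adamts5, which cut versican and aggrecan, were both lower on day 10. Adamts1 had 12.22 on day 6, then 11.45 on day 8 and finally 10.86 on day 10, a steady series in which day 10 was 2.58-fold lower than day 6. Its gene neighbour Adamts5 had 13.09, 13.07 and 11.88, flat over the first step and 2.31-fold lower on day 10 than on day 6. Adamts7, which cuts the cartilage oligomeric matrix protein, had 10.71, 10.67 and 9.98. The Adamts7 difference of -0.73 was short of 2-fold.

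Among the somatic ADAMs, Adam17, the enzyme that releases tumour necrosis factor and epidermal growth factor receptor ligands, had 12.58 on day 6, then 12.43 on day 8 and finally 11.46 on day 10. Its day 10 value was 2.16-fold lower than that of day 6. Adam9, a further membrane protease, had 10.91, 10.82 and 9.92, and its 1.99-fold difference was just short of the threshold. Adam23, which has no protease activity and is known from the nervous system, had 10.03, 9.71 and 9.08 (1.93-fold lower). Adam15, an ADAM with an integrin-binding motif, had 10.11, 10.21 and 10.21 and was the flattest of the group.

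**Figure D3:**
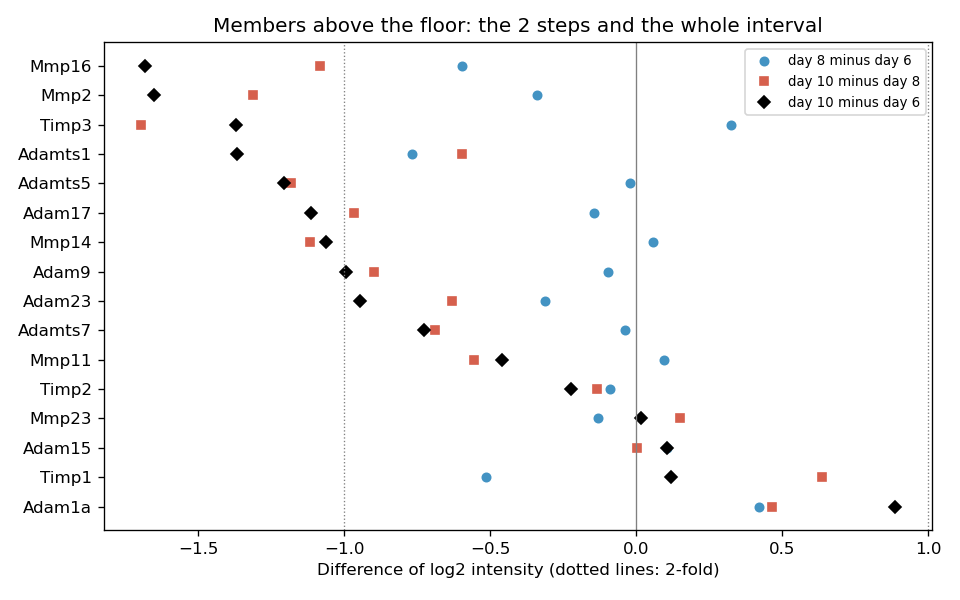
Differences of log2 intensity for the 16 detected members, for day 8 minus day 6 (circles), day 10 minus day 8 (squares) and day 10 minus day 6 (diamonds), with dotted lines at 2-fold. The circles of all 16 genes lie inside the dotted lines, and the squares of 5 genes (Timp3, Mmp2, Adamts5, Mmp14 and Mmp16) lie at 2-fold or more below 0.

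The first step, day 8 against day 6, held no 2-fold change in the family. Of the 16 members, 0 were at least 2-fold higher and 0 lower, while 1.11% of the 5429 named genes were lower and 0.442% higher. The differences ran from -0.77 for Adamts1 to 0.42 for Adam1a, with a median of -0.09 against 0.04 for the named genes. Besides Adamts1, Mmp16 (-0.60) and Timp1 (-0.51) had the lowest differences, and Timp3 (0.32) was the member nearest to Adam1a at the other end.

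The second step, day 10 against day 8, held most of the difference. Here 5 of 16 members were at least 2-fold lower, namely Timp3, Mmp2, Adamts5, Mmp14 and Mmp16, and 0 were higher, against 11.6% and 4.19% of the 5488 named genes. The count was 3 with arrays centred on their medians (without Mmp14 and Mmp16) and 3 with the span trend subtracted (without Adamts5 and Mmp16), and Mmp16 was short of 2-fold under each of the 3 other scalings. The members' median was -0.66 and that of the named genes -0.04. In 6 of the 7 genes that were lower between days 10 and 6, the second step was the larger, and the exception was Adamts1 (-0.77 in the first step and -0.60 in the second). Timp1 had the highest difference of the second step (0.63), opposite to Timp3 (-1.70). The steps share the day 8 array and the interval shares its end arrays, so the 3 comparisons are not independent.

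Over named genes the day 10 against day 6 difference was lower for genes with a longer genomic span, introns included, and the family has many long genes. The median span of the 16 members was 33.9 kb, against 20.02 kb for the named genes. Across the 16 members Spearman's rho between difference and span was -0.58, and across the 5518 named genes -0.43. These are descriptions across genes measured on the same arrays. With a limit at 25 kb chosen after the values were seen, 5 of 9 longer and 2 of 7 shorter members were at least 2-fold lower, against 20.6% of 2321 longer and 5.16% of 3197 shorter named genes. Both short ones, Adamts1 (8.82 kb) and Mmp14 (9.23 kb), lay well below the trend of the named genes at their span.

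With the span trend of the named genes subtracted, 5 of the 7 kept a 2-fold difference. Adamts1 had -1.54, Mmp2 -1.503, Mmp14 -1.22, Mmp16 -1.11 and Timp3 -1.04, while Adamts5 (-0.89) and Adam17 (-0.72) did not reach 2-fold. The subtraction lowered the count by 2 and raised the members' median from -0.97 to -0.60. Of the named genes, 8.79% were then at least 2-fold lower. Centring each array on its median moved the median of all genes from 0.02 to 0.14 and the share of lower genes among all 2-fold changed genes from 59.9% to 49.8%. Under that centring Adam17 (-0.998, just inside the threshold) and Mmp14 (-0.95) were not called, and the members split into 0 higher and 5 lower.

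**Figure D4:**
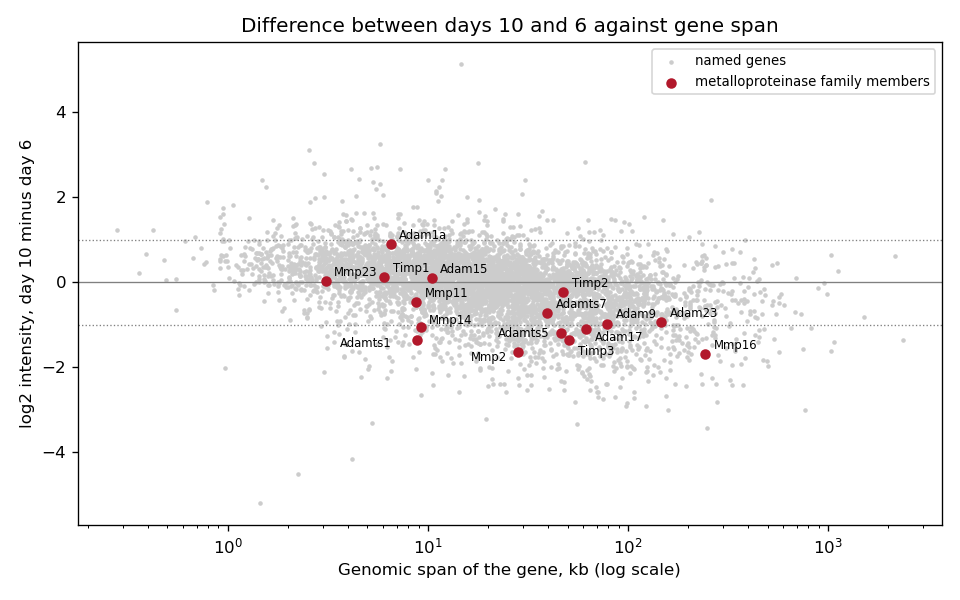
Difference of log2 intensity between day 10 and day 6 (vertical axis, dotted lines at 2-fold) against genomic span in kb on a log axis, for 5518 named genes in grey and the 16 detected members in red. Long genes tend to lie lower, and Adamts1 and Mmp14, of about 9 kb, lie under the lower dotted line.

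Genes that work with the family were read as lists. Of 14 activators, inhibitors and partners on the array, 11 entered the day 10 against day 6 comparison, with a median of -0.10. At 2-fold 0 were higher and 1 was lower. Of the named genes 4.48% were higher and 11.7% lower, so 1 of 11 is close to the share of all named genes. The lower one was Furin, a convertase that activates Mmp14, Mmp11 and many ADAM precursors (12.16, 12.41 and 11.10 on days 6, 8 and 10, and 2.09-fold lower on day 10 than on day 6). Bsg (basigin, an inducer of MMPs) had 14.67, 14.75 and 14.65 and was flat.

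Of 16 targets of Adam10 and Adam17 shedding on the array, 9 entered the comparison, 6 of these were at least 2-fold lower as measured and 0 higher, and the median was -1.53, against 11.7% lower and a median of -0.02 for the named genes. With values raised to the floor, an alternative for the gene lists chosen after seeing the data, 5 were at least 2-fold lower and the median was -1.28. Kitlg, under the floor on day 10, was at least 1.73-fold lower. App (-0.41) and Jag1 (-0.63) did not reach 2-fold. Cdh1 (E-cadherin) was 5.54-fold lower on day 10 (8.64 against 11.11 on day 6). The receptor Notch2 was 4.58-fold lower (9.52 against 11.72). Hbegf, a ligand of the epidermal growth factor receptor, was the 1 target with a positive difference (0.78). These genes were listed for the proteins that ADAMs cut, and RNA levels say nothing of cutting.

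Matrix substrates had 7 of 10 genes in the comparison, with 2 at least 2-fold lower as measured, 0 higher and a median of -0.72. With values raised to the floor 1 was at least 2-fold lower and the median was -0.33. The small proteoglycan Bgn (biglycan) was 2.15-fold lower on day 10 (13.23 against 14.33 on day 6). The large proteoglycan Acan (aggrecan) was at least 1.26-fold lower, being under the floor on day 10 (8.00 on day 6). The fibrillar collagen genes Col1a2 and Col3a1 were nearly flat, with differences of -0.01 and -0.08. Of 6 other metzincins and related endopeptidases on the array, 4 entered, with a median of -0.92, or -0.56 with values raised to the floor. All 4 had a negative difference as measured, and so did 51.3% of the named genes. Ece1, the endothelin-converting enzyme, was 2.18-fold lower (11.17 against 12.30).

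Several cell type markers also differed between days 10 and 6, and their part in the family's differences was not tested. Of the named genes in this comparison, 11.7% were at least 2-fold lower and 4.48% higher. Fibroblast markers, 6 of 6 detected, had a median of -0.88 with 2 at least 2-fold lower. Their summed intensity over days 6, 8 and 10 was 110212, 103706 and 86676. The 2 fibroblast markers with the highest values, Col1a2 (-0.01) and Col3a1 (-0.08), were nearly flat. Endothelial markers, 5 of 5 detected, had a median of -1.18 with 3 lower as measured and 2 with values raised to the floor (median then -0.93, summed intensities 7993, 9100 and 6351). Leydig cell markers, 5 of 6 detected, had a median of -1.10 with 3 lower (27599, 25050 and 11955). The endothelial Cldn5 (0.68) and the Leydig cell Insl3 (0.38) went the other way, both short of 2-fold. Peritubular and smooth muscle markers, 5 of 5 detected, had 0 members at 2-fold and went both ways, from -0.40 for Cnn1 to 0.55 for Actg2 (median -0.10, summed intensities 69746, 64523 and 66113). Skeletal muscle markers, 3 of 5 detected, were all at least 2-fold higher on day 10 (688, 522 and 2850).

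**Figure D5:**
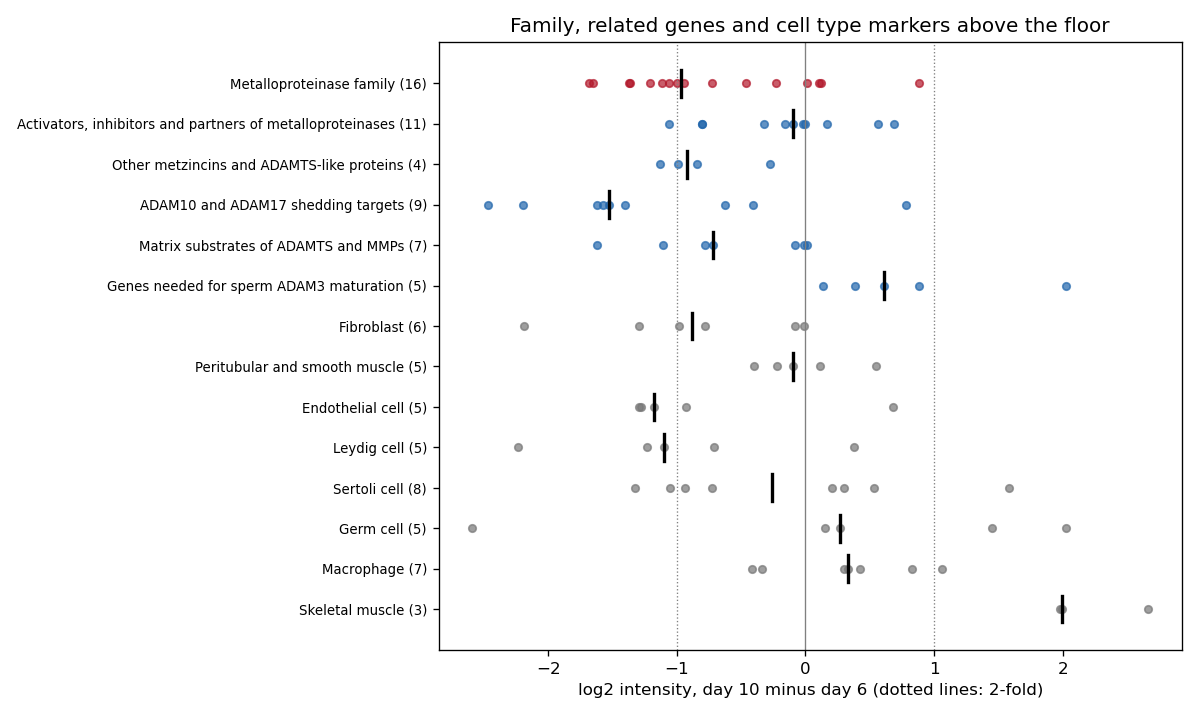
Difference of log2 intensity between day 10 and day 6 for the 16 detected family members (top), 5 lists of related genes and 8 lists of cell type markers. Each point is a gene above the floor, black bars are list medians, the number of genes is in brackets and dotted lines mark 2-fold. The family median is -0.97, and the list medians run from -1.53 for the shedding targets to 1.99 for skeletal muscle.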

How the data were processed

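The files deposited by the authors hold, for every array, an intensity for each RefSeq accession. RMA is the tool named in the submitters' processing notes, without version or settings. It corrects background, brings the arrays' distributions together and summarises probes, so a change common to most genes is hidden. Series table and array files were identical (largest difference 0). A deposited column named as a standard error has no stated scale and was not used.

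Intensities were taken to log2. A RefSeq gene table (GRCr8) gave symbols to 9747 of 26419 probe sets. Its coordinates were used only for gene order and span. Genes above the floor on either array of a comparison were used, and a 2-fold difference was counted. No test across arrays was possible. The span trend was a lowess fit (fraction 0.3, 3 iterations, statsmodels 0.14.6), and quantile and cyclic loess normalization used limma 3.58.1. The calling steps were run on simulated data with changes well past 2-fold and little noise. This checks the steps themselves and does not measure the error of calls near the threshold. Members and lists were chosen with earlier results of these data known. Named genes were all detected members, and per related list up to 2 genes per direction with the largest 2-fold change or else the largest difference. Bsg, Hbegf, Kitlg, App, Jag1, Col1a2, Col3a1, Ace and Calr3 fell outside this rule and were named after their values were seen. A planned count of zinc-binding motifs in the proteins was not run, since no protein sequences were used here. The number of arrays limits the precision.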

Additional observations from a re-analysis of the deposited data

How the results depend on the processing

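The 4 floors and the choice of the brightest probe set cannot change a detected member, each of which has 1 probe set above the floor on every array. The 4 other alternatives (3 scalings and the span trend) gave 192 values of single members. Of these values, 187 moved by less than the pooled SD between probe sets of a gene, and 0 called differences changed sign. The median SD between such probe sets was smaller, at 0.19 (days 10 and 6), 0.15 (days 8 and 6) and 0.24 (days 10 and 8). More values moved by that measure, such as Adam17 between days 10 and 6 (-1.11, and -0.72 with the span trend subtracted). The 5 that moved further than the pooled SD, in Mmp16, Adam23 and Adam9, all came from subtracting the span trend. Median centring shifts all genes of a comparison alike and by less than that SD, so its values could not be among them. The count of members at least 2-fold lower between days 10 and 6 was 7 with quantile and with cyclic loess normalization. It was 5 with median centring and with the span trend subtracted. With no floor the members' median for that comparison was -0.23 over 31 genes, the undetected members going both ways. Between days 10 and 8, 3 members instead of 5 were lower with median centring (Mmp14 and Mmp16 at -0.997 and -0.96) and 3 with the span trend subtracted (without Adamts5 and Mmp16), and 4 with quantile and with cyclic loess normalization (without Mmp16). In that comparison 1 member was higher, Mmp12, both with no floor and with the floor at the receptor percentile. Between days 8 and 6 no alternative called a member. The span relation over all 31 members had a rho of -0.42. No paired analysis was possible because each day has 1 array, and for the same reason no array could be left out.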

Other observations

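The remaining marker lists describe what else the tissue held. Of 9 Sertoli cell markers, all above the floor on at least 1 day, 8 entered the day 10 against day 6 comparison, with 1 at least 2-fold higher and 2 lower (median -0.26). Their summed intensity over days 6, 8 and 10 was 66551, 78732 and 61700. Cartilage and bone markers, 5 on the array, had 1 higher (Ibsp) and 1 lower (Acan) as measured and 0 of either with values raised to the floor (median 0.20 as measured and 0.01 raised, summed intensities 6190, 5209 and 6722). Of 7 epididymis and mesothelium markers 3 entered, with the mesothelial Msln (10.96 on day 10 against 9.62 on day 6) higher and a median of 0.48 (0.16 with values raised to the floor). Their sum was 18164, 15900 and 11296, most of it from Wt1, which Sertoli cells also express.

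Among partners of the family, Tfpi2, an inhibitor of plasmin and of some MMPs, had 5.47, 6.79 and 4.58 on days 6, 8 and 10, under the floor on each. Plaur, the receptor of urokinase, had 7.70, 7.03 and 8.27, above the floor on day 10 alone, and its ligand Plau had 11.36, 11.63 and 11.04. All 3 were chosen after their values were seen.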
